A study of Mus musculus with 11 samples.

Results

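The integrin, laminin and basement membrane genes described here are 40 of the 19938 genes measured. They were chosen by symbol from probe sets with a single gene name: 18 integrin alpha chains, 8 integrin beta chains, 10 laminin chains, both nidogens (Nid1 and Nid2), perlecan (Hspg2) and dystroglycan (Dag1). A gene with several probe sets took the one with the highest mean over the 11 arrays, a choice that arose for Itgad alone.

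Integrins are the cell surface receptors that hold cells to matrix and to other cells. Each is a pair of one alpha and one beta chain, and the pairing sets the ligand. Laminins, built from one alpha, one beta and one gamma chain, are linked by nidogens and perlecan to a collagen network to form the basement membrane, the sheet under every epithelium and around vessels, nerves and muscle. In stomach epithelium, chains such as Itga6, Itga3 and Itgb4 anchor the cell to that sheet, whereas leukocytes carry their own set, led by the Itgb2 chain.

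Expression was measured on Affymetrix arrays, 1 per sample, in 3 groups of mouse stomach. The pChePS_GC group held 4 samples of gastric cancer tissue from mice that carried Pdx-1-Cre with Cdh1F/+, Trp53F/F and Smad4F/F, so that 1 of the Cdh1 alleles was not floxed. The pCP_GC group held 3 samples of gastric cancer tissue from mice that carried Pdx-1-Cre with Cdh1F/F and Trp53F/F, whose Smad4 alleles are not listed as floxed. The NGE group held 4 samples of normal gastric epithelium from mice that the labels call Pdx1-1-Cre-negative, with no floxed allele named. Both tumour groups are labelled as diffuse-type gastric cancer, Cre is driven by Pdx-1 in both, and the labels give neither ages nor the region of stomach sampled. Separate mice are not stated for the samples of a group. A p-value here therefore sets a difference against the spread among the samples, part of which may be technical.

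All values are log2 signals, and a difference of 1 is a 2-fold change of signal. Correlations between arrays of a group, across genes, were 0.962 to 0.978 in pChePS_GC, 0.972 to 0.988 in pCP_GC and 0.990 to 0.994 in NGE. Precision is limited by how few arrays there are. Xist, transcribed from the inactive X chromosome of females, read 5.57 to 6.02 on the tumour arrays and 11.54 to 12.66 on NGE arrays, and the Y-linked Eif2s3y read 8.08 to 11.09 on the tumour arrays and 4.94 to 5.19 on NGE arrays, so sex and tumour cannot be told apart in the comparisons with NGE. Cdh1, floxed in both tumour groups, read 8.73 to 11.07 in pChePS_GC, 10.52 to 12.02 in pCP_GC and 12.93 to 13.02 in NGE, and Smad4, floxed in pChePS_GC, read 10.17 to 11.02 in pChePS_GC, 11.41 to 11.49 in pCP_GC and 11.05 to 11.16 in NGE. As a check of the stomach label, the parietal cell list (Atp4a, Atp4b and Slc26a7) averaged 7.19 to 7.86 in pChePS_GC, 6.90 to 9.77 in pCP_GC and 12.89 to 13.09 in NGE. Epithelial markers (Epcam, Krt8, Krt18, Krt19 and Cldn7) averaged 12.88 to 12.94 in pChePS_GC, 12.56 to 13.00 in pCP_GC and 12.00 to 12.18 in NGE. Of these 5, 3 were higher in pChePS_GC and 2 in pCP_GC, with median log2 differences of 0.41 and 0.15. Much of the higher mean came from Cldn7, at 11.50 to 11.80 in pChePS_GC, 11.05 to 11.88 in pCP_GC and 7.83 to 8.59 in NGE. Krt8 did not rise, at 13.87 to 14.01 in pChePS_GC, 13.69 to 14.05 in pCP_GC and 14.01 to 14.09 in NGE.

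Integrin and basement membrane genes were largely higher in both tumour groups than in normal epithelium. In pChePS_GC, 25 of 40 were higher than in NGE (62.5%, against 18.7% of all genes) and 1 was lower (2.5%, against 23.4% of all genes), at a limma adjusted p under 0.05. In pCP_GC, 26 of 40 were higher (65%, against 20.0% of all genes) and 3 were lower (7.5%, against 31.8%). At a change of at least 2-fold, 21 members were higher in pChePS_GC (6.98% of all genes) and 22 in pCP_GC (8.13% of all genes). No member was lower by that much, against 3.34% of all genes in pChePS_GC and 2.83% in pCP_GC. The median log2 difference of the 40 was 1.16 in pChePS_GC, beside -0.10 over all genes, and 1.26 in pCP_GC, beside -0.12.

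Centring each array on its median moved the median of all genes by -0.17 in pChePS_GC and -0.21 in pCP_GC. The members then split as 24 higher and 5 lower in pChePS_GC and as 25 higher and 8 lower in pCP_GC. With quantile normalization the splits were 24 and 5 in pChePS_GC and 25 and 5 in pCP_GC. Both tumour comparisons share the NGE arrays. The tumours also held more signal of other cell types. Fibroblast markers averaged 11.04 to 12.05 in pChePS_GC, 11.18 to 12.14 in pCP_GC and 7.56 to 7.91 in NGE. Endothelial markers averaged 9.58 to 10.61 in pChePS_GC, 9.62 to 10.25 in pCP_GC and 6.87 to 7.07 in NGE. All 5 genes of each of these lists were higher in both tumour groups. In bulk tissue, fewer cells of a type and less RNA per cell cannot be told apart, and the part of cell mixture in the results below was not tested.

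**Figure D1:**
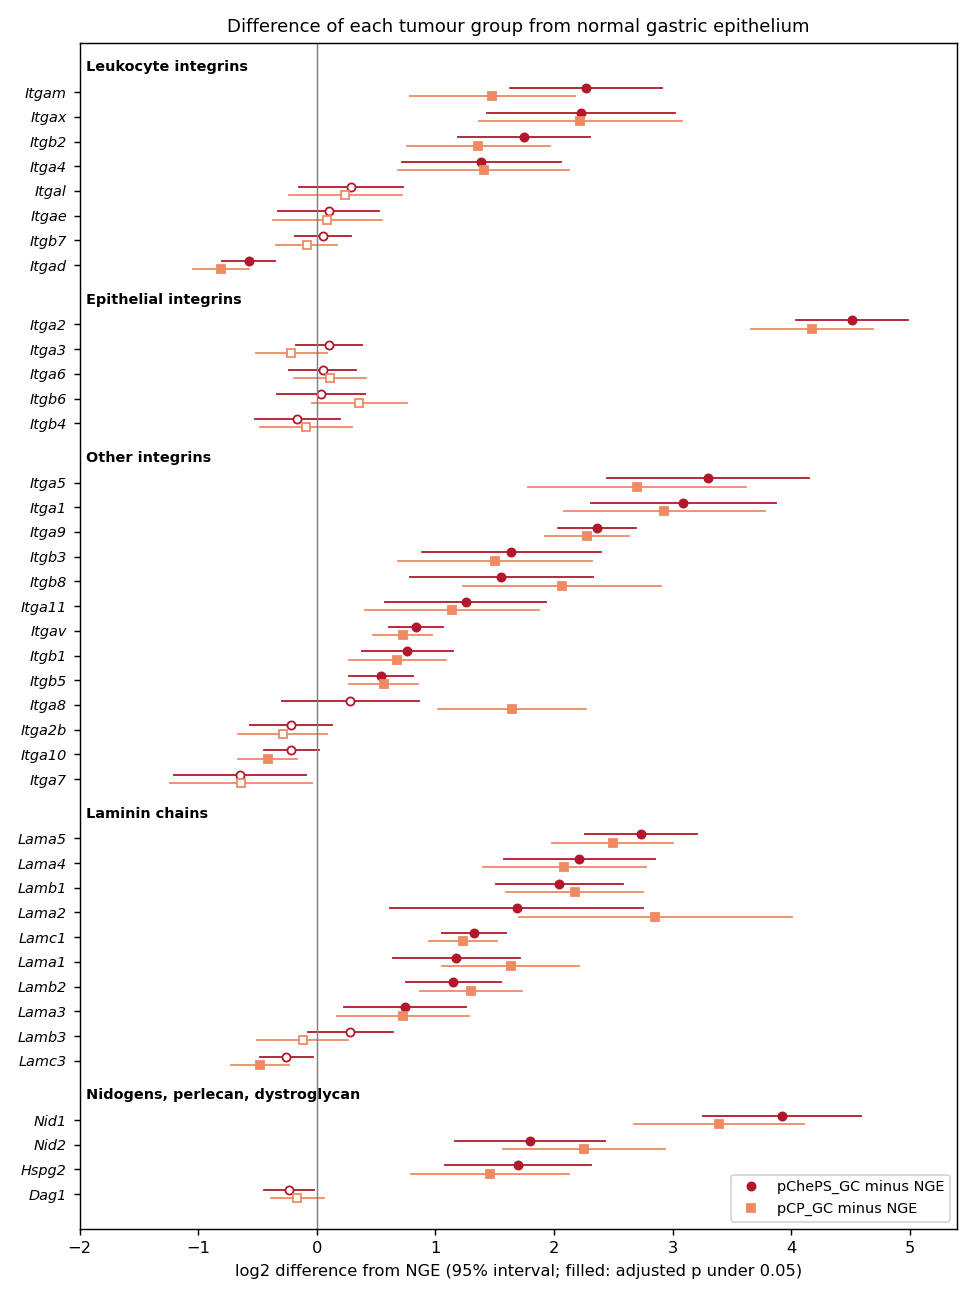
Log2 difference from NGE of each of the 40 genes (horizontal axis), grouped by role, for pChePS_GC (circles, 4 arrays) and pCP_GC (squares, 3 arrays) against 4 NGE arrays. Lines are 95% intervals of the limma fit and filled symbols have an adjusted p under 0.05. Itga2 lay farthest to the right in both tumour groups, while the other epithelial integrins lay near 0.

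The DNA before the start site is printed for 6 members with large differences between the groups, among them Itga8 for its difference between the tumours: Itga2, Itga5, Nid1, Itgam, Itgax and Itga8. The 250 bases come from RefSeq's annotation of GRCm38.p6, and the set of starts used here covered 26 of the 40 genes. The windows are chr13:114932101-114932350 (minus strand) for Itga2, chr15:103366792-103367041 (minus strand) for Itga5, chr13:13437352-13437601 (plus strand) for Nid1, chr7:128062390-128062639 (plus strand) for Itgam, chr7:128129300-128129549 (plus strand) for Itgax and chr2:12301945-12302194 (minus strand) for Itga8. Capitals mark matches, on either strand, to GAGGAA (the core bound by the myeloid factor PU.1), TGANTCA (AP-1) and GGGCGG (the Sp1 box), and the marked matches do not overlap.
Itga2: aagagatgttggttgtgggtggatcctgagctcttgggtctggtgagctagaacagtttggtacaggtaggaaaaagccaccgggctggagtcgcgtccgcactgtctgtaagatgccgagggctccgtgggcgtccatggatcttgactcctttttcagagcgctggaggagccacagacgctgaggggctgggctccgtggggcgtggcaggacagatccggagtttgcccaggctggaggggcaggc
Itga5: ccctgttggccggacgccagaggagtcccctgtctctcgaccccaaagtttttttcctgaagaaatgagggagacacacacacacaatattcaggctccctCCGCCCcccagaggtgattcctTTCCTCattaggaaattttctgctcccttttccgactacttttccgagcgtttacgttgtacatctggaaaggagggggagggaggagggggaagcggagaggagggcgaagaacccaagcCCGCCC
Nid1: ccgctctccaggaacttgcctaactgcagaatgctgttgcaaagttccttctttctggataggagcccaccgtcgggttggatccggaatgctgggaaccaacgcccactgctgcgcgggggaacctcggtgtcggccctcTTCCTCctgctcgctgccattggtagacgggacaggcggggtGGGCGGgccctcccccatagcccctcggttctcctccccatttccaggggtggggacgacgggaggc
Itgam: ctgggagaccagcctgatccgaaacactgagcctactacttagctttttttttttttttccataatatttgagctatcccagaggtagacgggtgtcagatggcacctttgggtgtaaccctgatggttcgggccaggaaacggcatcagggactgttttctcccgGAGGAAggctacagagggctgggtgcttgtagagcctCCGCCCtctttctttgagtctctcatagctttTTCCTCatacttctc
Itgax: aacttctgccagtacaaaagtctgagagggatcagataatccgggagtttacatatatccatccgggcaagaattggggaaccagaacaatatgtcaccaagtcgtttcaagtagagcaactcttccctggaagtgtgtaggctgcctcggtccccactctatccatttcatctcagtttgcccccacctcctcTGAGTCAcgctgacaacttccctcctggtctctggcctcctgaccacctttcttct
Itga8: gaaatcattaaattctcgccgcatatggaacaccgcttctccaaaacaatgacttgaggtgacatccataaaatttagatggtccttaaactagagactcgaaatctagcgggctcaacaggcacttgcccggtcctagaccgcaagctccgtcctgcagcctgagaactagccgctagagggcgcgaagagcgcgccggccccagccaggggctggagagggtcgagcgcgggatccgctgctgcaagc
The Itgam window held 2 matches to GAGGAA and 1 to GGGCGG, the Itgax window held 1 match to TGANTCA, and those of Itga2 and Itga8 held no match to the 3 motifs. Itga5 had 1 match to GAGGAA and 2 to GGGCGG, and Nid1 had 1 of each. Of 32851 RefSeq windows of the same length, 23.3% held GAGGAA, 6.75% TGANTCA and 32.7% GGGCGG. Among the 30 windows of members, 14, 1 and 13 held them. A match describes these letters only.

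Leukocyte integrins divided into chains that rose in both tumour groups and chains that did not pass. Itgam, Itgax, Itgb2 and Itga4 rose in both (50% of the 8, against 18.7% of all genes in pChePS_GC and 20.0% in pCP_GC). Itgad fell in both (12.5%, against 23.4% of all genes in pChePS_GC and 31.8% in pCP_GC). Itgal, Itgae and Itgb7, which mark lymphocytes more than macrophages, passed in neither. The list of 8 had a median log2 difference of 0.84 in pChePS_GC and 0.80 in pCP_GC.

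Itgam (CD11b) pairs with Itgb2 on macrophages and neutrophils and binds complement fragments and Icam1. It read 9.22, 9.44, 9.42 and 9.49 in pChePS_GC, 7.97, 9.63 and 8.21 in pCP_GC and 7.20, 6.90, 7.33 and 7.07 in NGE. The pChePS_GC arrays lay within 0.26 of each other and the second pCP_GC array stood above both others of its group, while every tumour array exceeded every NGE array. The difference from NGE was 2.27 in pChePS_GC (SE 0.29, adjusted p = 0.000191) and 1.48 in pCP_GC (SE 0.31, adjusted p = 0.00331), and 0.96 in pCP_GC without pCP_GC replicate 2. Odorant and pheromone receptor genes, 1190 in number and not known for stomach expression, served as a gauge of dim signal, and 95% of them had an NGE mean of 7.24 or less. The NGE mean of Itgam was within that range, so where that level is background the rise is a lower bound. The same holds for Itgax, Itga1, Itga8, Itgb8 and Lama2, and for no member in either tumour group. The receptor bound itself was lower in tumours, at 6.99 in pChePS_GC and 6.86 in pCP_GC. Its part in small differences below 0, such as those of Itga10 and Lamc3, was not tested.

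Itgax (CD11c), the alpha chain of dendritic cells and some macrophages, read 8.86, 10.29, 8.11 and 9.16 in pChePS_GC, 8.78, 9.37 and 9.14 in pCP_GC and 6.71, 6.74, 7.07 and 6.99 in NGE. Its groups did not overlap, and its pChePS_GC arrays spread more widely than those of pCP_GC. It rose by 2.23 in pChePS_GC (SE 0.36, adjusted p = 0.00081) and by 2.22 in pCP_GC (SE 0.39, adjusted p = 0.00122).

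Itgb2, the beta chain that Itgal, Itgam, Itgax and Itgad all need to reach the surface, read 9.07, 9.96, 9.53 and 9.87 in pChePS_GC, 8.70, 9.92 and 9.03 in pCP_GC and 7.81, 7.83, 7.98 and 7.82 in NGE. All tumour arrays were above the NGE arrays, with the lowest tumour value in pCP_GC. The rise was 1.75 in pChePS_GC (SE 0.25, adjusted p = 0.00041) and 1.36 in pCP_GC (SE 0.27, adjusted p = 0.00247). Itga4, which joins Itgb1 or Itgb7 and binds Vcam1 and fibronectin, read 7.95, 9.40, 8.74 and 8.58 in pChePS_GC, 8.30, 9.38 and 8.37 in pCP_GC and 7.29, 7.11, 7.56 and 7.17 in NGE. It rose by 1.39 (SE 0.30, adjusted p = 0.00496) in pChePS_GC and by 1.41 (SE 0.33, adjusted p = 0.0052) in pCP_GC.

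Itgad (CD11d), found on macrophage subsets, read 8.58, 8.36, 8.61 and 8.61 in pChePS_GC, 8.47, 8.11 and 8.34 in pCP_GC and 9.07, 9.22, 9.14 and 9.03 in NGE. It was the leukocyte chain that passed as lower, and its groups did not overlap. In pChePS_GC it fell by 0.58 (SE 0.10, adjusted p = 0.00128), and the pCP_GC difference was -0.81 (SE 0.11, adjusted p = 0.000261). The dimmer second probe set of Itgad ranged from 7.03 to 7.32 in pChePS_GC, from 6.81 to 7.04 in pCP_GC and from 7.39 to 7.69 in NGE, also without overlap with NGE.

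Itgal (CD11a), the partner of Itgb2 on lymphocytes, read 7.50, 8.48, 7.92 and 8.49 in pChePS_GC, 7.93, 8.04 and 8.18 in pCP_GC and 7.91, 7.61, 7.78 and 7.94 in NGE. The groups overlapped, and the difference was 0.29 in pChePS_GC (95% interval -0.15 to 0.73, adjusted p = 0.257) and 0.24 in pCP_GC (-0.24 to 0.72, adjusted p = 0.368). Without pChePS_GC replicate 1, the lowest of its group, the pChePS_GC differences of Itgal (0.49, adjusted p = 0.0311) and Itgae (0.33, adjusted p = 0.0365) passed. Over all alternatives the adjusted p of Itgal ran from 0.0311 to 0.625 and that of Itgae from 0.0365 to 0.993. Itgae (CD103), which pairs with Itgb7 on T cells inside epithelia and binds E-cadherin, ranged from 6.95 to 8.02 in pChePS_GC, 7.55 to 7.71 in pCP_GC and 7.43 to 7.57 in NGE. Itgb7 ranged from 7.47 to 7.88 in pChePS_GC, 7.42 to 7.73 in pCP_GC and 7.62 to 7.71 in NGE. Its change in pCP_GC, -0.09, became -0.30 (adjusted p = 0.0262) with each array centred on its median, over an adjusted p range of 0.0262 to 0.972.

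Markers of the cells that carry these chains were read on the same arrays, and their part in the changes above was not tested. All 4 general leukocyte markers (Ptprc, Cd53, Laptm5 and Coro1a) and all 5 macrophage markers were higher in both tumour groups, as were all 4 neutrophil markers. The macrophage list averaged 10.55 to 11.15 in pChePS_GC, 10.13 to 11.35 in pCP_GC and 7.32 to 7.66 in NGE. Of 5 measured T and natural killer cell markers none was higher and 1 (Cd8a) was lower in each tumour group, and their mean was 6.77 to 7.61 in pChePS_GC, 7.07 to 7.23 in pCP_GC and 7.14 to 7.32 in NGE. Of 8 measured ligands of leukocyte integrins, 4 rose in both tumour groups, among them Icam1. Over all genes, 18.7% were higher and 23.4% lower in pChePS_GC, and 20.0% and 31.8% in pCP_GC. Vcam1, the endothelial ligand of Itga4, rose by 2.99 in pChePS_GC (adjusted p = 5.92e-06) and by 2.58 in pCP_GC (adjusted p = 3.32e-05). Jam2, a junction protein of endothelium, rose by 2.70 in pChePS_GC and by 2.72 in pCP_GC. Cdh1, which is E-cadherin and floxed in both tumour groups, fell in both (fell by 3.39 in pChePS_GC and fell by 1.78 in pCP_GC), and F11r also fell in pCP_GC.

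Of the 5 epithelial integrins, 1 rose and none fell in each tumour group. That share of 20% is near the share of all genes that were higher, 18.7% in pChePS_GC and 20.0% in pCP_GC. The 1 change, that of Itga2, was larger than that of any other member. Itga2, a collagen receptor chain of epithelia and platelets that pairs with Itgb1, read 12.39, 12.15, 11.78 and 12.35 in pChePS_GC, 11.98, 11.22 and 12.29 in pCP_GC and 7.69, 7.61, 7.86 and 7.47 in NGE. The lowest tumour array was 3.37 above the highest NGE array. Itga2 rose by 4.51 in pChePS_GC (SE 0.21, 22.8-fold, adjusted p = 2.35e-07) and by 4.17 in pCP_GC (SE 0.23, 18.1-fold, adjusted p = 1.1e-06).

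The 4 other epithelial chains were bright in all 3 groups. Itga6, which with Itgb4 forms the laminin receptor of hemidesmosomes, read 11.91, 12.39, 12.11 and 12.11 in pChePS_GC, 12.20, 11.92 and 12.47 in pCP_GC and 12.11, 12.14, 12.04 and 12.04 in NGE. Its groups overlapped, and the difference from NGE was 0.05 in pChePS_GC (95% interval -0.23 to 0.33, adjusted p = 0.77) and 0.11 in pCP_GC (-0.19 to 0.42, adjusted p = 0.51). Itgb4 read 10.90, 11.39, 11.17 and 11.56 in pChePS_GC, 11.43, 10.99 and 11.56 in pCP_GC and 11.61, 11.23, 11.39 and 11.43 in NGE. Here too the groups overlapped, with differences of -0.16 in pChePS_GC (-0.52 to 0.20, adjusted p = 0.429) and -0.09 in pCP_GC (-0.48 to 0.30, adjusted p = 0.691).

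Itga3, another laminin receptor chain, read 11.23, 11.03, 11.11 and 10.96 in pChePS_GC, 10.84, 10.44 and 11.02 in pCP_GC and 10.88 to 11.14 in NGE. Differences from NGE were 0.10 in pChePS_GC (-0.17 to 0.38, adjusted p = 0.523) and -0.21 in pCP_GC (-0.51 to 0.08, adjusted p = 0.202). It passed in pCP_GC with each array centred on its median (-0.43, adjusted p = 0.036, range over the alternatives 0.036 to 0.741). Itgb6, which joins Itgav on epithelia and releases active TGF-beta, read 11.64, 11.76, 11.01 and 10.99 in pChePS_GC, 11.65, 11.68 and 11.67 in pCP_GC and 11.20, 11.34, 11.41 and 11.31 in NGE. The 3 pCP_GC arrays lay within 0.03 of each other and above every NGE array, whereas the pChePS_GC arrays fell on both sides of NGE. Its difference was 0.04 in pChePS_GC (adjusted p = 0.874) and 0.36 in pCP_GC (adjusted p = 0.118). For pCP_GC, a fit of these 2 groups alone passed (adjusted p = 0.00865), as did array weights, where the alternatives ran from 0.00865 to 0.523.

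**Figure D2:**
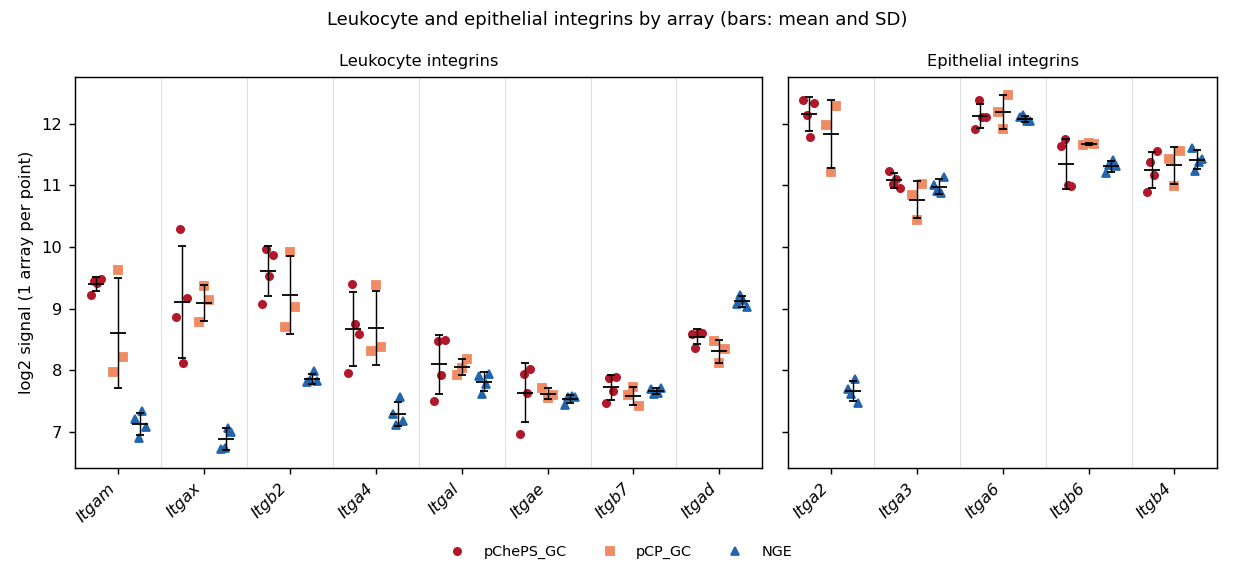
Log2 signal on each array (1 point per array) of 8 leukocyte and 5 epithelial integrin chains in pChePS_GC (circles, 4 arrays), pCP_GC (squares, 3 arrays) and NGE (triangles, 4 arrays), with the mean and SD as black bars. Itga2 lay at 11.22 to 12.39 on tumour arrays and at 7.47 to 7.86 on NGE arrays, and the other 4 epithelial chains stayed at 10.44 or above in all groups.

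Among hemidesmosome and tetraspanin partners of these chains, 3 of 7 rose and 1 fell in pChePS_GC, and 2 rose and 3 fell in pCP_GC. The shares of all genes were 18.7% higher and 23.4% lower in pChePS_GC, and 20.0% and 31.8% in pCP_GC. The tetraspanin Cd9 rose by 0.99 in pChePS_GC (adjusted p = 6.33e-06) and by 0.96 in pCP_GC (adjusted p = 1.75e-05). Dst, the plakin that ties hemidesmosomes to keratin, fell by 0.59 in each tumour group (adjusted p = 0.0321 in pChePS_GC and 0.0341 in pCP_GC). Cd81, another tetraspanin, rose by 0.64 in pChePS_GC and by 0.95 in pCP_GC.

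Each integrin was next set against a marker of its cells on the same array, leukocyte chains against Ptprc (CD45) and epithelial chains against Epcam. This asks whether 2 genes changed unequally and gives no level of one against the other. Ptprc read 8.73 to 9.86 in pChePS_GC, 8.58, 9.82 and 8.63 in pCP_GC and 7.00, 7.21, 6.90 and 7.09 in NGE. Epcam read 12.05, 11.86, 12.20 and 11.89 in pChePS_GC, 12.36, 11.99 and 12.28 in pCP_GC and 11.19, 11.55, 11.66 and 11.40 in NGE. Both markers were higher in each tumour group, Ptprc by 2.13 in pChePS_GC and 1.96 in pCP_GC, and Epcam by 0.55 in pChePS_GC and 0.76 in pCP_GC.

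For Itgam and Itgax no difference from the change of Ptprc passed. With the mean of the leukocyte list in place of Ptprc, however, Itgam passed as lower in pCP_GC. Itgam minus Ptprc was -0.42 to 0.49 in pChePS_GC and -0.31 to 0.43 in NGE, a difference of 0.14 (exact two-sided permutation test over samples, adjusted p = 0.681 over 13 pairs), and in pCP_GC the difference was -0.48 (exact test, adjusted p = 0.124). For Itgax it was 0.10 in pChePS_GC (exact test, adjusted p = 0.8) and 0.26 in pCP_GC (exact test, adjusted p = 0.371). Itgal, Itgae, Itgb7 and Itgad were lower relative to Ptprc in both tumour groups, with differences of -2.70 to -1.84 in pChePS_GC and exact adjusted p at 0.0464 in pChePS_GC and 0.0371 in pCP_GC. For the first 3 of these the gene's own level did not pass in either comparison, and the difference is close in size to the rise of Ptprc. Itga4 was lower relative to Ptprc in pChePS_GC (-0.74, exact adjusted p = 0.0464), and Itgb2 in pCP_GC (-0.60, exact adjusted p = 0.0371).

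Relative to Epcam, Itga2 was higher by 3.96 in pChePS_GC and by 3.41 in pCP_GC, without overlap. Itga3 and Itgb4 were lower relative to Epcam in both tumour groups, with a difference for Itga3 of -0.45 in pChePS_GC and -0.97 in pCP_GC, and for Itgb4 of -0.71 in pChePS_GC and -0.85 in pCP_GC. Itga6 (-0.65) and Itgb6 (-0.40) passed as lower in pCP_GC and not in pChePS_GC, where the difference was -0.50 for Itga6 (exact adjusted p = 0.0825) and -0.51 for Itgb6 (exact adjusted p = 0.101). For Itga3, Itgb4, Itga6 and Itgb6 the gene's own level did not pass in either comparison. Their differences relative to Epcam thus include the rise of Epcam itself. In all, 1 of 13 pairs was higher and 7 lower in pChePS_GC, and 1 higher and 9 lower in pCP_GC. The share of all genes lower relative to these markers was not computed, so these counts have no yardstick. Over all genes the median log2 difference from NGE was -0.10 in pChePS_GC and -0.12 in pCP_GC, while both markers rose. A gene without a change of its own would thus tend to count as lower. The smallest p these exact tests allow is 0.0286, before adjustment. Leaving out any 1 array other than pChePS_GC replicate 2 ended all 8 calls in pChePS_GC (exact adjusted p = 0.0531 to 0.165), where 3 against 4 arrays allow no p below 0.0286. Without pChePS_GC replicate 2, 6 of the 8 held and Itga6 and Itgb6 also passed as lower. Between the tumour groups no pair passed, and the lowest unadjusted p, 0.0286, was that of Itga3 relative to Epcam (difference 0.52, exact adjusted p = 0.371). At that smallest p a single pair among 13 cannot pass after adjustment, so this comparison could not have called Itga3 alone.

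**Figure D3:**
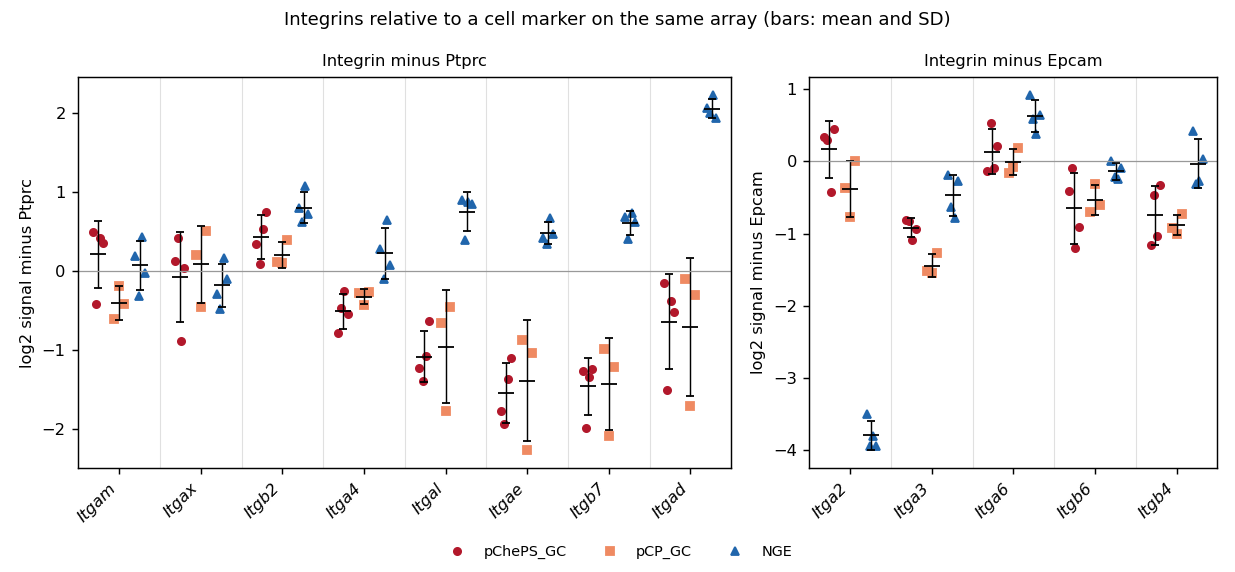
Log2 signal of each integrin minus Ptprc (left) or minus Epcam (right) on the same array, 1 point per array, with the mean and SD as black bars, for pChePS_GC (4 arrays), pCP_GC (3 arrays) and NGE (4 arrays). Itga2 minus Epcam lay at -0.77 to 0.45 on tumour arrays and at -3.94 to -3.50 on NGE arrays, and Itgam and Itgax minus Ptprc overlapped between groups.

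The other 13 integrin chains serve fibronectin, collagen, tenascin and muscle laminin and are spread over stroma, vessels and epithelium. Of these, 9 rose and none fell in pChePS_GC, and 10 rose and 1 fell in pCP_GC. Among all genes 18.7% rose and 23.4% fell in pChePS_GC, and 20.0% rose and 31.8% fell in pCP_GC. Itga5, the fibronectin receptor chain that pairs with Itgb1, read 10.03, 11.18, 12.17 and 11.51 in pChePS_GC, 9.98, 11.19 and 10.71 in pCP_GC and 8.03, 7.87, 7.85 and 7.95 in NGE. It was highest in pChePS_GC replicate 3, lowest of the tumours in both replicates numbered 1, and clear of NGE on every tumour array. The rise was 3.30 in pChePS_GC (SE 0.39, 9.83-fold, adjusted p = 0.000103) and 2.70 in pCP_GC (SE 0.42, 6.49-fold, adjusted p = 0.000643).

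Itga1, a collagen receptor chain of mesenchyme and smooth muscle, read 10.07, 9.64, 10.86 and 10.06 in pChePS_GC, 9.20, 10.85 and 9.95 in pCP_GC and 6.82, 7.06, 7.64 and 6.77 in NGE. Its groups did not overlap, and it rose by 3.09 in pChePS_GC (SE 0.35, adjusted p = 8.76e-05) and by 2.93 in pCP_GC (SE 0.38, adjusted p = 0.000237). Itga9, which binds tenascin and Vcam1, read 9.42, 9.76, 9.81 and 9.79 in pChePS_GC, 9.40, 9.90 and 9.53 in pCP_GC and 7.56, 7.05, 7.47 and 7.26 in NGE. Both tumour groups lay in a narrow band well above NGE, with rises of 2.36 in pChePS_GC (SE 0.15, adjusted p = 1.66e-06) and 2.28 in pCP_GC (SE 0.16, adjusted p = 5.11e-06).

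Itgb3, which joins Itgav on endothelium and osteoclasts and Itga2b on platelets, read 8.72, 8.81, 10.29 and 9.92 in pChePS_GC, 9.17, 8.84 and 9.88 in pCP_GC and 7.89, 7.67, 7.87 and 7.74 in NGE. It rose by 1.64 in pChePS_GC (SE 0.34, adjusted p = 0.00386) and by 1.50 in pCP_GC (SE 0.37, adjusted p = 0.00679). Its platelet partner Itga2b did not pass, at 7.86 to 8.40 in pChePS_GC, 7.70 to 8.34 in pCP_GC and 8.07 to 8.41 in NGE. Of 4 measured platelet markers, Pf4 and Ppbp were higher and Gp5 lower in both tumour groups, and Pf4 read 7.72, 8.26, 10.00 and 9.89 in pChePS_GC, 8.26, 9.64 and 9.07 in pCP_GC and 7.58, 7.11, 7.37 and 7.54 in NGE. Itga2b in pCP_GC passed as lower under array weights, under both other scalings and without pCP_GC replicate 3 (adjusted p = 0.0447), over an adjusted p range of 0.0212 to 0.544. In pChePS_GC, where its difference was -0.22, it passed as lower with quantile normalization (-0.40, adjusted p = 0.0456, range 0.0456 to 0.516).

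Itgb8, the other Itgav partner that activates TGF-beta, read 8.93, 8.53, 9.58 and 7.76 in pChePS_GC, 8.75, 9.87 and 9.02 in pCP_GC and 7.28, 6.84, 7.16 and 7.31 in NGE. Replicate 4 was the lowest pChePS_GC array for Itgb8 and still exceeded NGE. The rise was 1.56 in pChePS_GC (SE 0.35, adjusted p = 0.00567) and 2.06 in pCP_GC (SE 0.38, adjusted p = 0.00152). The bright chains Itgav, Itgb1 and Itgb5 rose by less than 2-fold: Itgav by 0.83 in pChePS_GC and 0.72 in pCP_GC, Itgb1 by 0.76 in pChePS_GC and 0.68 in pCP_GC, and Itgb5 by 0.54 in pChePS_GC and 0.56 in pCP_GC. The Itgb1 call in pCP_GC did not hold without pCP_GC replicate 2 (adjusted p = 0.0523, over all alternatives 0.000913 to 0.0523). Itga11, a collagen receptor chain of fibroblasts, rose by 1.26 in pChePS_GC and 1.14 in pCP_GC, and by 0.67 in pCP_GC without pCP_GC replicate 2.

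Itga7 and Itga10 had differences below 0 in both tumour groups. Itga7, the laminin receptor chain of muscle, ranged from 7.94 to 9.19 in pChePS_GC, 8.19 to 9.02 in pCP_GC and 8.90 to 9.42 in NGE. Its differences were -0.65 in pChePS_GC (adjusted p = 0.0597) and -0.64 in pCP_GC (adjusted p = 0.0702). For Itga7 the pChePS_GC difference passed with both other scalings, with array weights, without pChePS_GC replicate 3 (adjusted p = 0.0124) or without pCP_GC replicate 2 (adjusted p = 0.044), over an adjusted p range of 0.0106 to 0.142. In pCP_GC it passed with each array centred (-0.85, adjusted p = 0.0109), with quantile normalization (-0.91, adjusted p = 0.0145), under array weights (adjusted p = 0.00213) and in a fit of pCP_GC and NGE alone (adjusted p = 0.0255). It also passed there without its replicate 2 (adjusted p = 0.0316) and without pChePS_GC replicate 1 or 3 (adjusted p = 0.038 and 0.032), over an adjusted p range of 0.00213 to 0.233. Smooth muscle markers, all 5 of which were higher in both tumour groups, averaged 9.09 to 12.45 in pChePS_GC, 10.87 to 12.02 in pCP_GC and 7.77 to 7.80 in NGE. Itga10, a collagen receptor chain of cartilage, fell by 0.41 in pCP_GC (adjusted p = 0.0114), and its difference in pChePS_GC was -0.22 (adjusted p = 0.114), which passed without NGE replicate 2 (adjusted p = 0.0241). It passed too with each array centred (-0.39, adjusted p = 0.00746) and with quantile normalization (-0.36, adjusted p = 0.0142), over an adjusted p range of 0.00746 to 0.257.

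Itga8 was the member with the largest difference between the tumour groups. This chain, which pairs with Itgb1 on smooth muscle and fibroblasts and binds nephronectin, read 7.24, 7.11, 7.49 and 7.31 in pChePS_GC, 9.08, 7.78 and 9.10 in pCP_GC and 7.32, 6.77, 6.88 and 7.07 in NGE. The pCP_GC arrays lay above all others, with replicate 2 much lower than the other two, and the pChePS_GC arrays overlapped NGE. It rose by 1.65 in pCP_GC against NGE (SE 0.28, adjusted p = 0.00112), and its difference from NGE in pChePS_GC was 0.28 (SE 0.26, adjusted p = 0.397).

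**Figure D4:**
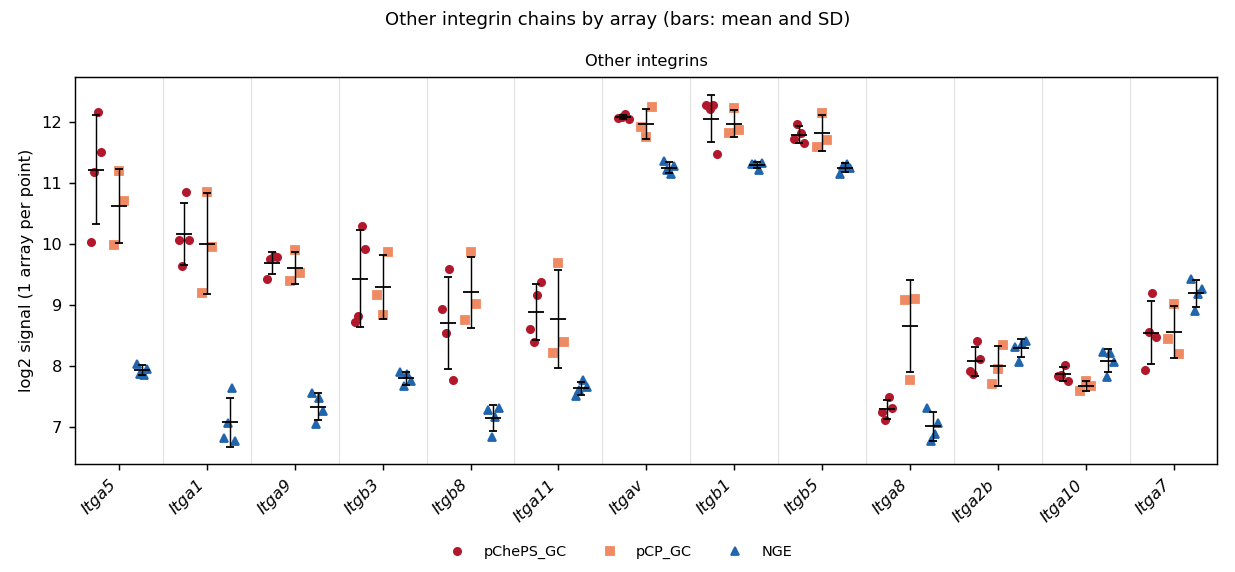
Log2 signal on each array (1 point per array) of the 13 other integrin chains in pChePS_GC (circles, 4 arrays), pCP_GC (squares, 3 arrays) and NGE (triangles, 4 arrays), with the mean and SD as black bars. Itga8 lay at 7.78 to 9.10 in pCP_GC, above 7.11 to 7.49 in pChePS_GC and 6.77 to 7.32 in NGE.

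Ligands and adaptors of these integrins were examined from fixed lists. Of 7 measured RGD and matrix ligands 6 rose in each tumour group. Fibronectin (Fn1) rose by 4.69 in pChePS_GC and 4.39 in pCP_GC, and tenascin C (Tnc) by 4.68 in pChePS_GC and 4.97 in pCP_GC. Periostin (Postn), a ligand of Itgav pairs, rose by 4.15 in pChePS_GC and 4.49 in pCP_GC. Nephronectin (Npnt), the Itga8 ligand, was named after its values were seen and rose by 0.98 in pChePS_GC and 1.84 in pCP_GC. Of 22 measured adaptors and kinases, 12 rose and none fell in pChePS_GC, and 9 rose and 1 (Itgb1bp2) fell in pCP_GC. Beside both lists, 18.7% of all genes rose and 23.4% fell in pChePS_GC, and 20.0% rose and 31.8% fell in pCP_GC. Fermt2, the kindlin of mesenchyme and epithelium, rose by 2.07 in pChePS_GC and 2.08 in pCP_GC, and the actin crosslinker Actn1 by 1.75 in pChePS_GC and 1.65 in pCP_GC. Parvg, the parvin of blood cells, rose by 1.16 in pChePS_GC and 0.95 in pCP_GC.

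Laminin chains were mostly higher in tumours: 8 of 10 rose and none fell in pChePS_GC, and 8 rose and 1 fell in pCP_GC. Their median log2 difference was 1.25 in pChePS_GC and 1.46 in pCP_GC. All genes gave 18.7% higher and 23.4% lower in pChePS_GC, and 20.0% and 31.8% in pCP_GC.

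Lama5, the alpha chain of adult epithelial and vascular basement membranes, read 11.42, 10.57, 11.15 and 10.34 in pChePS_GC, 10.39, 10.67 and 10.84 in pCP_GC and 8.34, 8.03, 8.07 and 8.11 in NGE. The lowest tumour array was 2.00 above the highest NGE array. It rose by 2.73 in pChePS_GC (SE 0.21, 6.64-fold, adjusted p = 6.68e-06) and by 2.50 in pCP_GC (SE 0.23, 5.64-fold, adjusted p = 2.65e-05). Lama4, the alpha chain of endothelium and mesenchyme, read 9.17, 9.40, 10.29 and 9.03 in pChePS_GC, 8.95, 10.03 and 9.06 in pCP_GC and 7.21, 7.40, 7.32 and 7.12 in NGE. It rose by 2.21 in pChePS_GC (SE 0.29, adjusted p = 0.00021) and by 2.08 in pCP_GC (SE 0.31, adjusted p = 0.000518).

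Lama2, the alpha chain of muscle and nerve sheaths, read 8.61, 8.89, 9.96 and 7.16 in pChePS_GC, 9.38, 10.59 and 9.51 in pCP_GC and 7.06, 7.10, 6.79 and 6.95 in NGE. Replicate 4 of pChePS_GC lay only 0.06 above the highest NGE array, while the 3 others and all pCP_GC arrays were clearly higher. The rise was 1.68 in pChePS_GC (SE 0.48, adjusted p = 0.0185) and 2.85 in pCP_GC (SE 0.52, adjusted p = 0.00151). Lama1, the alpha chain of embryonic basement membranes, read 8.72, 8.63, 8.89 and 9.42 in pChePS_GC, 8.95, 10.03 and 9.14 in pCP_GC and 7.98, 7.50, 7.63 and 7.85 in NGE. It rose by 1.18 in pChePS_GC (SE 0.24, adjusted p = 0.00352) and by 1.63 in pCP_GC (SE 0.26, adjusted p = 0.000769).

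Lamb1, a beta chain shared by most laminins, read 10.91, 9.82, 10.56 and 9.97 in pChePS_GC, 9.96, 10.77 and 10.59 in pCP_GC and 8.14, 8.25, 8.44 and 8.25 in NGE. It rose by 2.04 (SE 0.24, adjusted p = 0.00011) in pChePS_GC and by 2.17 (SE 0.26, adjusted p = 0.000144) in pCP_GC, with no overlap. Lamc1, the gamma chain of most laminins, read 11.25, 11.59, 11.46 and 11.01 in pChePS_GC, 11.14, 11.26 and 11.30 in pCP_GC and 9.98, 10.08, 9.87 and 10.08 in NGE. Its rise was 1.33 in pChePS_GC (SE 0.12, adjusted p = 2.03e-05) and 1.23 in pCP_GC (SE 0.13, adjusted p = 6.22e-05). Lamb2 rose by 1.15 in pChePS_GC and by 1.30 in pCP_GC.

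Lama3 and Lamb3 are chains of the laminin that Itga6 with Itgb4 binds. Lama3 ranged from 8.73 to 9.46 in pChePS_GC, 8.66 to 9.55 in pCP_GC and 7.97 to 8.73 in NGE, so that the lowest array of each tumour group lay at or just under the highest NGE array. It passed as higher by 0.74 in pChePS_GC (adjusted p = 0.0267) and 0.73 in pCP_GC (adjusted p = 0.0324). The pChePS_GC call of Lama3 was lost with both other scalings and without NGE replicate 2 or 4 or pChePS_GC replicate 1 or 2 (adjusted p = 0.0643, 0.0534, 0.0628 and 0.0726), over an adjusted p range of 0.0104 to 0.135. Its pCP_GC call was lost with both scalings and without NGE replicate 2, 3 or 4 or pCP_GC replicate 1 or 3 (adjusted p = 0.0796, 0.0524, 0.0565, 0.132 and 0.0877), over an adjusted p range of 0.00139 to 0.228. Lamb3 ranged from 10.69 to 11.42 in pChePS_GC, 10.46 to 10.97 in pCP_GC and 10.58 to 10.90 in NGE, with differences of 0.28 in pChePS_GC (adjusted p = 0.174) and -0.12 in pCP_GC (adjusted p = 0.58). The pChePS_GC difference of Lamb3 passed without pChePS_GC replicate 3 (0.41, adjusted p = 0.0482, range 0.0482 to 0.603).

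Lamc3 was the only laminin chain below NGE in both tumour groups, at 8.41 to 8.49 in pChePS_GC, 8.06 to 8.39 in pCP_GC and 8.51 to 8.91 in NGE, without overlap. It fell by 0.48 in pCP_GC (adjusted p = 0.00478), and its difference in pChePS_GC was -0.26 (adjusted p = 0.0624). In pChePS_GC it passed without NGE replicate 2 (adjusted p = 0.026) or pCP_GC replicate 2 (adjusted p = 0.0484), with array weights and with both other scalings, over an adjusted p range of 0.00422 to 0.167.

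The proteins that link laminin to the rest of the sheet rose as well. Nid1, which bridges laminin and type IV collagen, read 11.20, 11.50, 12.06 and 11.42 in pChePS_GC, 10.40, 11.93 and 10.72 in pCP_GC and 7.77, 7.83, 7.63 and 7.28 in NGE. The lowest tumour array was 2.57 above the highest NGE array. It rose by 3.92 in pChePS_GC (SE 0.30, 15.1-fold, adjusted p = 6.03e-06) and by 3.39 in pCP_GC (SE 0.33, 10.5-fold, adjusted p = 3.31e-05), the second largest change among the 40 after Itga2 in both comparisons. Nid2 read 9.51, 9.02, 10.28 and 8.85 in pChePS_GC, 9.41, 10.08 and 10.12 in pCP_GC and 7.67, 7.30, 7.71 and 7.79 in NGE. Its rises were 1.80 in pChePS_GC (SE 0.29, adjusted p = 0.000756) and 2.25 in pCP_GC (SE 0.31, adjusted p = 0.000314).

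Hspg2 (perlecan), the heparan sulphate proteoglycan of the sheet, read 10.57, 11.07, 11.75 and 10.75 in pChePS_GC, 10.22, 11.46 and 10.71 in pCP_GC and 9.29, 9.25, 9.41 and 9.40 in NGE. It rose by 1.70 in pChePS_GC (SE 0.28, adjusted p = 0.000933) and by 1.46 in pCP_GC (SE 0.30, adjusted p = 0.00284). Replicate 3 was the highest pChePS_GC array and replicate 2 the highest pCP_GC array for both Hspg2 and Nid1. Dag1, the laminin receptor outside the integrin family, read 11.95, 11.68, 11.77 and 11.55 in pChePS_GC, 11.90, 11.78 and 11.73 in pCP_GC and 12.06, 11.95, 11.90 and 11.97 in NGE. Its difference was -0.23 in pChePS_GC (95% interval -0.44 to -0.03, adjusted p = 0.0664) and -0.17 in pCP_GC (-0.39 to 0.06, adjusted p = 0.193). The pChePS_GC difference passed without pChePS_GC replicate 1 (adjusted p = 0.0233), with array weights and with each array centred on its median, over an adjusted p range of 0.00884 to 0.157. The pCP_GC difference of Dag1 passed with each array centred (-0.38, adjusted p = 0.0157, range 0.0157 to 0.392).

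**Figure D5:**
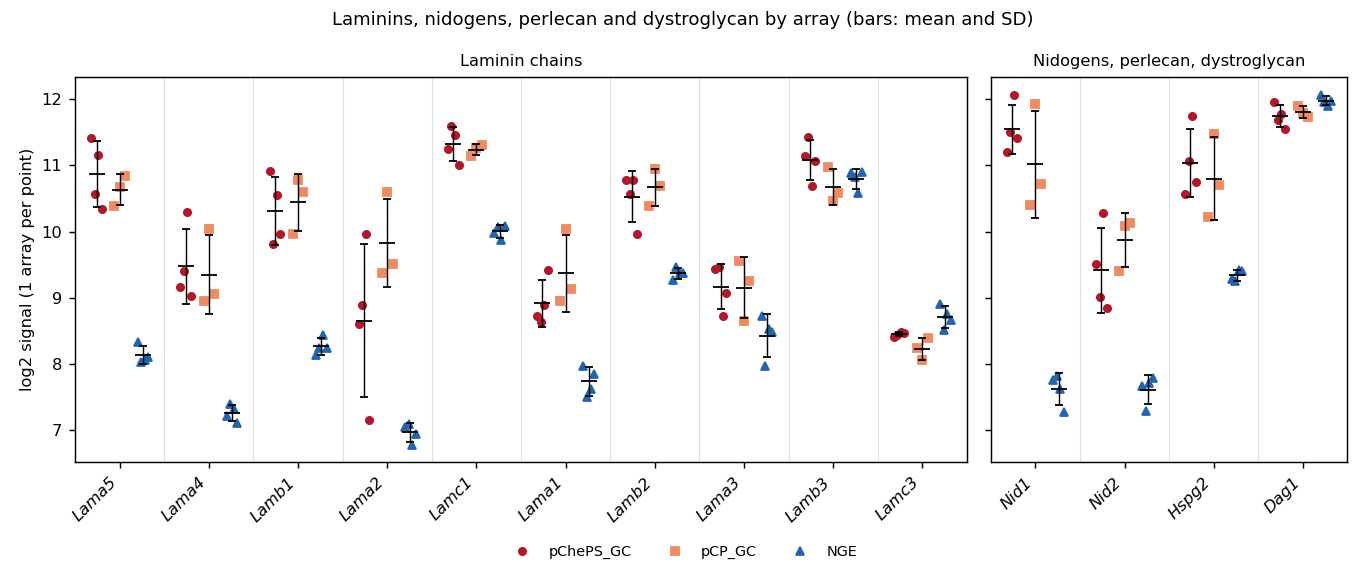
Log2 signal on each array (1 point per array) of 10 laminin chains, Nid1, Nid2, Hspg2 and Dag1 in pChePS_GC (circles, 4 arrays), pCP_GC (squares, 3 arrays) and NGE (triangles, 4 arrays), with the mean and SD as black bars. Nid1 lay at 11.20 to 12.06 in pChePS_GC, 10.40 to 11.93 in pCP_GC and 7.28 to 7.83 in NGE, while Lamb3 and Dag1 were bright and overlapping in all 3 groups.

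Other basement membrane proteins did not move as a block. Of 18 listed and measured, 7 rose and 5 fell in pChePS_GC, and 8 rose and 5 fell in pCP_GC. Of all genes, 18.7% rose and 23.4% fell in pChePS_GC, and 20.0% rose and 31.8% fell in pCP_GC. The broad type IV collagen chain Col4a2 rose by 2.53 in pChePS_GC (adjusted p = 0.000144) and 1.92 in pCP_GC (adjusted p = 0.00124). Sparc, a collagen-binding glycoprotein, rose by 4.36 in pChePS_GC and 4.18 in pCP_GC, and the fibulin Fbln2 by 3.00 in pChePS_GC and 1.98 in pCP_GC. The 5 that fell in both were Col4a3, Col4a4, Frem2, Ntn4 and Tinagl1, of which the first 2 encode the restricted type IV collagen chains of kidney and other specialised sheets.

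Comparing pChePS_GC with pCP_GC asks whether tumours with floxed Smad4 and 1 floxed Cdh1 allele differ in these genes from tumours with both Cdh1 alleles floxed. No member passed by limma in either direction, where 0.115% of all genes were higher and 0.251% lower. At an unadjusted limma p under 0.05 there were 5 (Itga8, Itgam, Itga3, Lamb3 and Lama2). The shares of all genes just given hold for an adjusted p, so they are no yardstick for these 5. The share of all genes at the unadjusted threshold was not computed, so whether 5 exceeds it is not known. Itga8 was nearest, with a difference of -1.37 and all pChePS_GC arrays below all pCP_GC arrays (95% interval -1.99 to -0.74, adjusted p = 0.0771). An exact two-sided permutation test over its 35 arrangements gave p = 0.0286, the smallest possible. Lamc3 (difference 0.22), whose tumour groups did not overlap either, reached the same exact p. These exact p-values were not adjusted over the members, and Itga8 was singled out by its values here. The Itga8 difference passed without pCP_GC replicate 2 (-1.80, adjusted p = 0.00154) and under array weights (adjusted p = 0.0106), where the alternatives ran from 0.00154 to 0.297.

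The same pCP_GC array decided the call of Itgam, whose difference was 0.79 (interval 0.10 to 1.48, adjusted p = 0.255). Without that array it was 1.30 (adjusted p = 0.00326, range 0.00326 to 0.546). On that array Ptprc (9.82) and Itgam (9.63) were both higher than on the other pCP_GC arrays. Lama2 had the next largest difference, -1.17 (interval -2.32 to -0.02, adjusted p = 0.296). For Itga2 the difference was 0.33 (interval -0.18 to 0.84), for Itga6 -0.06 (-0.37 to 0.24) and for Itgb4 -0.07 (-0.46 to 0.31). The intervals of Itga6 and Itgb4 leave out a change of 2-fold in either direction, and those of Itga5 (-0.32 to 1.52) and Nid1 (-0.19 to 1.25) do not.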

How the data were processed

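The authors deposited 1 normalized log2 signal per probe set and array, for 35556 probe sets. The unit was inferred from the values, which run from 2.88 to 14.6. The submitters' processing notes name Affymetrix Expression Console. No version, algorithm or genome build was given in those sources. The unstated correction and scaling act most on dim probe sets, where small differences are least firm.

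The platform annotation gave 1 gene symbol for 21789 probe sets, several for 1621 and none for 12146. The 3 probe sets shared between Itgam and Rpl35 were left out. Of the 1-symbol probe sets, 21698 matched a RefSeq gene (GRCm38.p6) by gene number. The table held 19938 genes.

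From these values a mean per group was fitted across the 11 arrays (limma 3.58.1, R 4.3.3, functions lmFit and eBayes), with Benjamini-Hochberg adjustment over 19938 genes and a threshold of 0.05. All 3 groups thus share a gene's residual spread. Integrins minus a marker were compared by exact two-sided permutation over samples, adjusted over 13 pairs. Both tests were tested on simulated data first. Values in every array are given for up to 6 members per role group, those with the largest difference from NGE, and for the other members ranges or differences. The members, lists and rules were chosen with earlier results of these data known. Genes named to spell out a count of 5 or fewer were named after their values were seen. Alternatives varied the scaling, the dim-gene filter, the probe set summary, the variance prior, array weights, the groups in the fit, the replicate block, the fold threshold, the marker and which array was left out.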

Additional observations from a re-analysis of the deposited data

Results flagged for a closer look

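Within the groups of 4 arrays, 80 sets of values (40 genes in pChePS_GC and in NGE) were examined for an array far from the other 3 by Dixon's criterion, and 5 stood out, where chance gives about 1 in 20. Itgb1 read 11.48 in pChePS_GC replicate 4, against 12.21 to 12.28 on the other pChePS_GC arrays. Itga9 read 9.42 in pChePS_GC replicate 1, against 9.76 to 9.81 on the others. Itgad read 8.36 in pChePS_GC replicate 2, against 8.58 to 8.61. In NGE, Itgb2 read 7.98 in replicate 3, against 7.81 to 7.83, and Itgae read 7.43 in replicate 1, against 7.56 to 7.57.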

How the results depend on the processing

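Leaving aside the fold threshold, 24 of the 25 higher calls in pChePS_GC and 24 of the 26 in pCP_GC passed under every alternative run, the exceptions being Lama3 in both and Itgb1 in pCP_GC. No called direction reversed. The count lower in pChePS_GC, 1 as reported, was 5 with each array centred on its median, 5 with quantile normalization, 4 with array weights and 0 at 2-fold. In pCP_GC the 3 lower became 8 with centring, 5 with quantile normalization, 5 with array weights and 0 at 2-fold. Between tumour groups, array weights gave 1 lower member (Itga8). Leaving out single arrays gave 24 to 26 higher and 1 to 3 lower in pChePS_GC, 25 to 26 higher and 3 to 4 lower in pCP_GC, and 0 to 1 higher and 0 to 1 lower between tumours. No label says that the replicate numbers pair samples. Taken as deviations from the group mean, same-numbered arrays of 2 groups correlated at -0.15 to 0.16. With the replicate block 25 members were higher and 2 lower (Dag1 added) in pChePS_GC, 26 and 3 in pCP_GC, and 0 and 0 between tumours. Relative to markers, the list means in place of Ptprc and Epcam gave 10 lower in pChePS_GC and 11 in pCP_GC. Itgam was among those lower in pCP_GC. For these counts, too, no share of all genes was computed. The epithelial list mean holds Cldn7, which exceeded every NGE array on every tumour array. Without single arrays, 0 to 1 pair was higher and 0 to 7 were lower in pChePS_GC. In the other comparisons too few arrays remain for a p under 0.05, so differences alone were recomputed. Signal near the level of receptor genes limits the 6 members named for it. The cause of the other shifts was not tested.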
